A study of Mus musculus with 48 samples.

Results

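A set of 8 genes around the let-7 microRNA family was followed through an RNA immunoprecipitation (RIP-seq) series in mouse embryonic stem cells. They are Trim71, Lin28a, Lin28b, Hmga2, Igf2bp1, Igf2bp2, Igf2bp3 and Mycn, picked by gene symbol, and they make up 8 of the 20171 genes in the count table. Each had a row in the table and passed the filter on low counts in every comparison. RNA was sequenced from cleared cell lysates (inputs) and from what magnetic HA-antibody beads held back from the same lysates (IPs). All cells were 129S6/SvEvTac mouse embryonic stem cells with a yGlob GFP_5xT71BS reporter and a stably transfected FLAG-Cas9 transgene with blasticidin resistance. The untagged line had only these changes. The HA-Tnrc6a line also carried an HA-AVI tag on Tnrc6a, the mouse GW182 protein that Argonaute proteins use to bring in deadenylation and decay enzymes. The Ago2 knockout and the cells labelled Upf1 knockout (Ago2-/- and Upf1-/- in the labels) carried the same tag and reporter, and the labels do not say how many clones stand behind a genotype. Each of the 16 combinations of 4 genotypes, 2 fractions and 2 experiments (experiments 3 and 4) held 3 libraries from 3 dishes, so p-values measure the spread between dishes. Which count columns belong to which experiment was inferred from their numbers (1 to 3 and 4 to 6), which the count table does not state, and only the ratios shown per lysate match an IP with the input of the same number, a match the main tests do not use.

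The let-7 microRNAs are absent or rare in pluripotent cells and accumulate as cells differentiate. Lin28a and Lin28b bind let-7 precursors and block their maturation, in part by recruiting the terminal uridylyltransferases Tut4 and Tut7, whose tails mark the precursor for the exonuclease Dis3l2. Mature let-7, loaded into an Argonaute, in turn represses the mRNAs of Lin28a, Lin28b, Trim71, Hmga2, the Igf2bp genes and Mycn, so that the proteins of the pluripotent state and let-7 hold each other down. Trim71 is itself a repressor, an NHL-domain protein that binds hairpins in target mRNAs such as Cdkn1a. Mature microRNAs were not measured in these libraries, and what follows concerns the mRNAs.

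The sequences that tie these genes together are the mature let-7 microRNAs, whose bases 2 to 8 (the seed, in capitals) pair with target mRNAs, and miR-125, the lin-4 homologue known to act on Lin28a and Trim71. They are written 5′ to 3′ as RefSeq gives them for GRCm38.p6.
let-7a-5p: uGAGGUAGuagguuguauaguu
let-7b-5p: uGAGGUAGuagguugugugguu
let-7d-5p: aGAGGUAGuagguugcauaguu
let-7g-5p: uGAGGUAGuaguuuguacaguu
let-7i-5p: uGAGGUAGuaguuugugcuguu
miR-98-5p: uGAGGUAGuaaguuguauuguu
miR-125a-5p: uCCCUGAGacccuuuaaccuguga
miR-125b-5p: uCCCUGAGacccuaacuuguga
Of the 11 let-7 and miR-98 names with a 5p entry, 10 shared the seed GAGGUAG and 1 did not. Among all 1679 mature mouse microRNAs in the RefSeq table, 11 held that seed and 5 held the miR-125 seed CCCUGAG. The printed let-7 sequences differ outside the seed, as between let-7b-5p (chr15:85707325-85707346 on the plus strand) and let-7g-5p (chr9:106178846-106178867 on the plus strand). The other sequences lie at chr13:48538239-48538260 on the minus strand (let-7a-5p), chr13:48536078-48536099 on the minus strand (let-7d-5p), chr10:122985698-122985719 on the minus strand (let-7i-5p), chrX:151913229-151913250 on the plus strand (miR-98-5p), chr17:17830817-17830840 on the plus strand (miR-125a-5p) and chr9:41581940-41581961 on the plus strand (miR-125b-5p).

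Lin28 proteins grip the loop of a let-7 hairpin through their zinc knuckles, which favour the motif GGAG. A hairpin with the motif (in capitals) and one without it are shown.
Mirlet7g: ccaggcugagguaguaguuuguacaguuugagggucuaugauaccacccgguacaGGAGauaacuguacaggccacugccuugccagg
Mirlet7b: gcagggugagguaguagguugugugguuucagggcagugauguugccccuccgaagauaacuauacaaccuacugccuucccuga
Mirlet7g is at chr9:106178840-106178927 on the plus strand and Mirlet7b at chr15:85707319-85707403 on the plus strand. The letters GGAG, searched on the RNA strand alone, were in 9 of 12 let-7 and miR-98 hairpins (75%) and in 447 of all 1005 mouse hairpins (44.5%). The 3 let-7 and miR-98 hairpins without it were Mirlet7c-2, Mirlet7b and Mir98, where the absence says only that these letters are not in the hairpin.

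Library totals ran from 15383953 to 19595405 counts in the inputs and 11471544 to 18344233 in the IPs of experiment 3, and from 26458831 to 37179105 and 25724085 to 73845953 in experiment 4. The 9 stem cell markers (Pou5f1, Sox2, Nanog, Klf4, Esrrb, Zfp42, Tdgf1, Utf1 and Dppa5a) summed to 6777 to 8465 CPM (counts relative to library size, after TMM scaling over all libraries) across the inputs, against 34.7 to 73.5 CPM for 6 markers of primed and differentiating cells and 27.3 to 57.4 CPM for 4 fibroblast markers. Among the latter, Col1a2 was at 0 in the lowest input. Ago2 mRNA in HA-Tnrc6a inputs was at 205 to 209.7 CPM in experiment 3 and 303 to 323 CPM in experiment 4, and at 92.8 to 97.1 and 124 to 136 CPM in Ago2 knockout inputs. Upf1 mRNA was not lower where the label said Upf1 knockout: its inputs held 122 to 124 and 135 to 142 CPM against 74.4 to 83.3 and 96.7 to 99.6 CPM in HA-Tnrc6a. Every direction given for those cells is for libraries labelled Upf1 knockout. Within groups, the counts of any 2 replicates differed by 1.96 or more in chi-square per degree of freedom, so none looked like a repeat deposit. Replicate 3 of the HA-Tnrc6a inputs in experiment 3 stood farthest apart among inputs (34.3 and 28.9 against its 2 partners). Leaving it out ended 3 calls of those below, the higher recovery of Lin28a in cells labelled Upf1 knockout and the input differences of Trim71 and Lin28b in untagged cells.

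Per kilobase of the gene length in the table, Lin28a had the highest level of the 8 in HA-Tnrc6a lysates and Lin28b the lowest. In experiment 3, Lin28a stood at 50.6 to 53.3 CPM per kilobase, followed by Mycn at 38.7 to 41.7 and Igf2bp1 at 27.4 to 29.4. Igf2bp2 (20.8 to 21.8) and Trim71 (21.1 to 21.6) overlapped and could not be ordered. Igf2bp3 followed at 8.66 to 9.04, Hmga2 at 1.75 to 2.09 and Lin28b at 0.759 to 0.809 CPM per kilobase. In experiment 4 Igf2bp1 (at least 44.9996) lay above Mycn (33.3 to 34.95), and Trim71 (27.8 to 29.6) lay above Igf2bp2 (21.3 to 22.4), with no overlap in either pair. Both Lin28 paralogues were thus present at very unequal levels, with Lin28a at 50.6 CPM per kilobase or more and Lin28b at 1.07 or less across these 6 lysates. Lin28b and Hmga2 were also the members with the fewest counts, as few as 99 and 111 in a library, and their values carry the largest counting error.

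**Figure D1:**
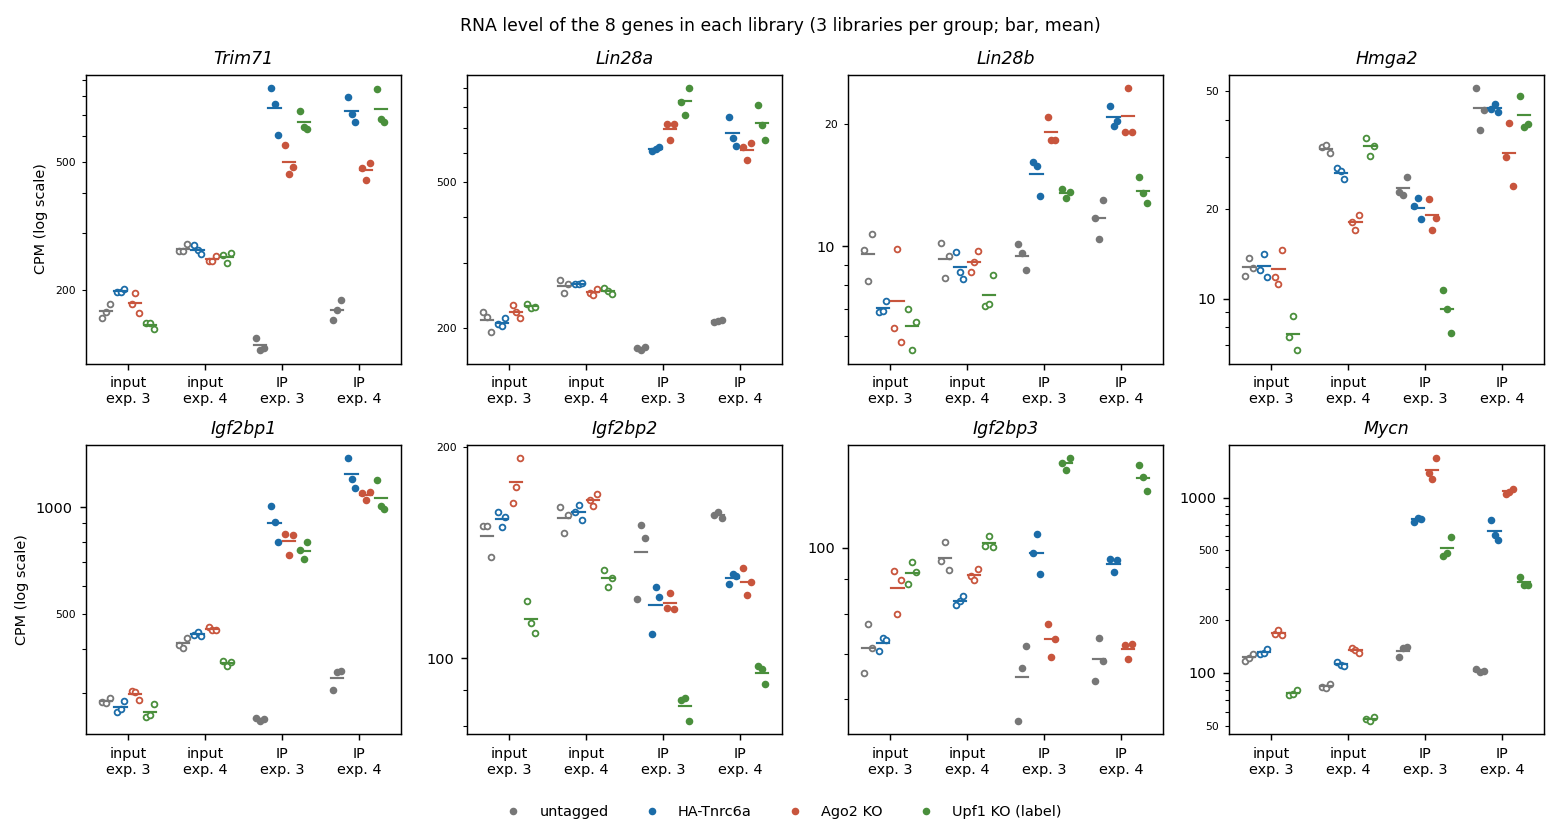
CPM (log axis) of each of the 8 genes in every library, by fraction and experiment, with open circles for inputs, filled circles for IPs and a bar at the mean of 3 libraries. Trim71, Lin28a, Igf2bp1 and Mycn were several fold higher in the IPs of all tagged genotypes than in untagged IPs, whereas no tagged IP lay above the highest untagged IP of its experiment for Igf2bp2 and Hmga2.

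Which of these mRNAs came down with HA-Tnrc6a was measured as enrichment, the log2 ratio of IP to input in HA-Tnrc6a cells less the same ratio in untagged cells, averaged over both experiments. Of the 8 genes, 6 were higher, 1 was lower and 1 did not pass the test (edgeR quasi-likelihood test, Benjamini-Hochberg adjusted p under 0.05). Among all 19993 genes tested, 62% passed, 29.8% as higher and 32.2% as lower, so passing is common in this comparison. The median log2 enrichment was 1.39 over the 8 genes and -0.097 over all genes tested. With library totals in place of TMM, the median over all genes was -0.25, and the 6 higher genes and the lower one kept their calls, so the values below are relative to the bulk of the RNA.

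Trim71 (ENSMUSG00000079259, chr9:114511268-114564369 in GRCm38.p6) was recovered strongly. Its mRNA stood at 142, 129.9 and 133 CPM in the untagged IPs of experiment 3 and at 849.6, 755 and 606 CPM in the HA-Tnrc6a IPs. In experiment 4 the values were 161, 174 and 186 CPM against 795, 704 and 666 CPM. All 6 tagged IPs lay above all 6 untagged IPs, while the inputs differed far less, with 197, 197 and 202 CPM for HA-Tnrc6a and 164, 171 and 182 CPM for untagged in experiment 3. The log2 enrichment was 2.17 ± 0.086 (SE, n = 3 per group), a 4.49-fold difference, with 2.23 in experiment 3 and 2.10 in experiment 4 and an edgeR adjusted p of 2.25e-21. This placed Trim71 at percentile 94.1 of the genes tested.

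The 2 Lin28 paralogues were both enriched. Lin28a (ENSMUSG00000050966, chr4:134003330-134019196), the form that predominates in these lysates, was at 176, 173 and 177 CPM in untagged IPs and 605, 615 and 621 CPM in HA-Tnrc6a IPs of experiment 3. Experiment 4 gave 207, 209 and 210.3 CPM against 751, 658 and 628 CPM. Groups did not overlap, and the log2 enrichment was 1.77 ± 0.065 (edgeR adjusted p = 2.5e-22). Lin28b (ENSMUSG00000063804, chr10:45376617-45486314), which overlaps Gm51827 in the RefSeq annotation, was at 10.1, 9.59 and 8.72 CPM in untagged and 16.2, 15.8 and 13.3 CPM in HA-Tnrc6a IPs of experiment 3, and at 11.7, 10.4 and 13.005 against 22.2, 19.8 and 20.4 CPM in experiment 4. Its log2 enrichment was 1.01 ± 0.12 (edgeR adjusted p = 6.04e-09), with no overlap between the groups in either experiment. The difference in enrichment between the paralogues was not tested.

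The Igf2bp genes, which encode cytoplasmic RNA-binding proteins that stabilise and localise mRNAs, went 3 ways. Igf2bp1 (ENSMUSG00000013415, chr11:95957163-96005944) was at 256, 251 and 255 CPM in untagged and 1009.5, 909.7 and 796 CPM in HA-Tnrc6a IPs of experiment 3, and at 306, 344 and 347 against 1373, 1201 and 1135 CPM in experiment 4. With a log2 enrichment of 1.87 ± 0.076 (edgeR adjusted p = 4.46e-21) it lay close to Lin28a. A microRNA gene, Mir3063, overlaps it and has its own row in the table. Igf2bp3 (ENSMUSG00000029814, chr6:49085218-49215469) was enriched less, by 0.64 ± 0.079 on the log2 scale (edgeR adjusted p = 1.05e-08), with 55.8, 66.6 and 71.7 CPM in untagged and 98.3, 105 and 91.6 CPM in HA-Tnrc6a IPs of experiment 3. Igf2bp3 overlaps Malsu1, a gene with its own row in the table, as well as Gm18010 and D030074P21Rik, and its counts are uncertain because whether counting used strand is not given in the sources used here. Igf2bp2 (ENSMUSG00000033581, chr16:22059009-22163299) was depleted. Its IPs held 160.4, 162 and 159 CPM in untagged and 128, 132 and 131 CPM in HA-Tnrc6a cells of experiment 4, without overlap, and 122, 155 and 148 against 108, 126 and 122 CPM in experiment 3, where the groups overlapped. The log2 value was -0.32 ± 0.072 (edgeR adjusted p = 0.000239), and in experiment 3 alone the call was lost (-0.26, adjusted p = 0.108).

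Hmga2 and Mycn, an architectural chromatin protein and a MYC family transcription factor, are both textbook let-7 targets and lay far apart. Mycn (ENSMUSG00000037169, chr12:12936093-12941836) had the largest enrichment of the 8, 2.31 ± 0.076 on the log2 scale or 4.97-fold (edgeR adjusted p = 1.18e-23). Its IPs held 122, 138 and 141 CPM in untagged and 728, 767 and 757 CPM in HA-Tnrc6a cells of experiment 3, and 106, 101 and 103 against 746, 610.4 and 573 CPM in experiment 4. Hmga2 (ENSMUSG00000056758, chr10:120361268-120476469) gave 22.9, 22.3 and 25.7 CPM in untagged and 20.4, 21.8 and 18.5 CPM in HA-Tnrc6a IPs of experiment 3, and 51.2, 36.98 and 43.2 against 43.3, 45.2 and 42.5 CPM in experiment 4. Its log2 enrichment was 0.033 ± 0.10 with a 95% interval of -0.16 to 0.23 (edgeR adjusted p = 0.794), so an enrichment as large as that of Igf2bp3 lies outside the interval. Untagged beads already held Hmga2 above its input level, at a log2 IP-over-input ratio of 0.89 ± 0.17 (SD, n = 3) in experiment 3 and 0.44 ± 0.25 in experiment 4, against 0.66 ± 0.044 and 0.72 ± 0.053 for HA-Tnrc6a. Hmga2 overlaps 5 genes in RefSeq (1700006J14Rik, Gm40783, 9230105E05Rik, Mir763 and Gm51785), none with a row in the table.

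**Figure D2:**
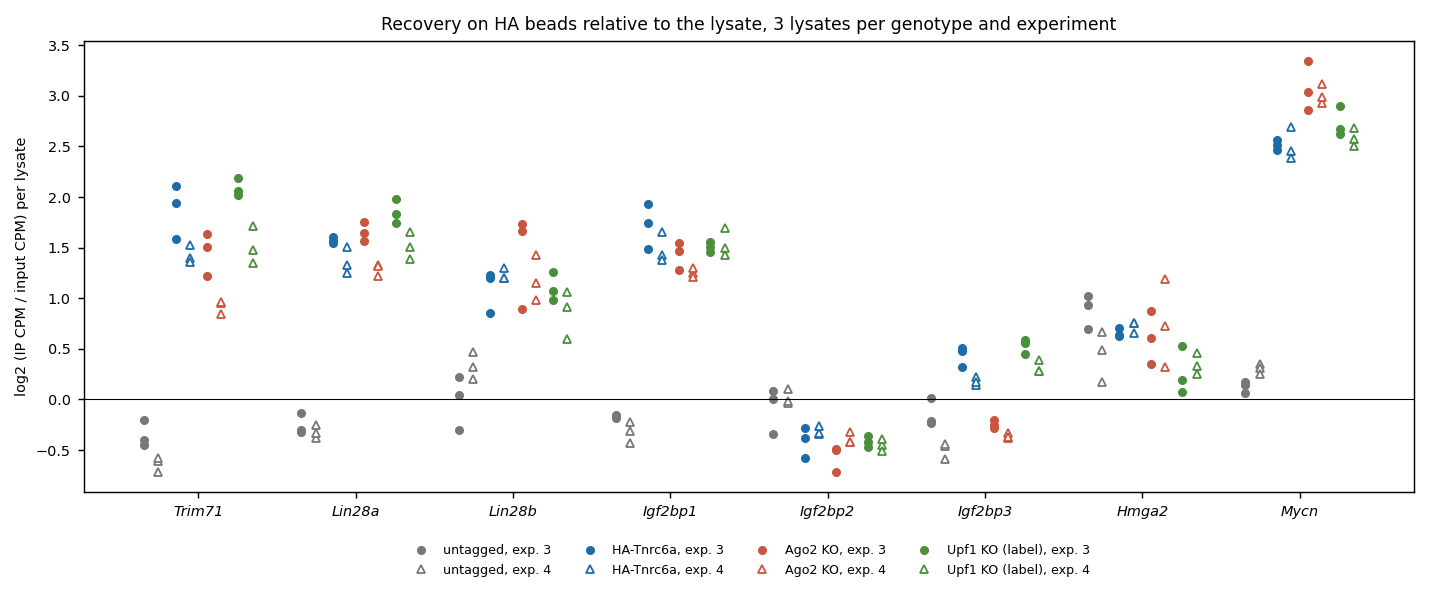
Log2 ratio of IP to input CPM for each lysate, by gene, genotype (colour) and experiment (filled circles, experiment 3; open triangles, experiment 4), with 3 lysates per genotype and experiment and a line at equal levels. Untagged lysates reach no more than 0.46 for all genes but Hmga2, Mycn in tagged cells lies at 2.38 or above, and Igf2bp3 in the Ago2 knockout lies below 0 in all 6 lysates.

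The same measure was taken in the Ago2 knockout and in cells labelled Upf1 knockout, each against the same untagged libraries, which the 3 comparisons share. In the Ago2 knockout 5 of the 8 genes were higher and 1 lower, where 31.5% of 19982 genes tested were higher and 33.2% lower (64.7% in all). In cells labelled Upf1 knockout 6 were higher and 2 lower, where 31.8% of 19910 genes were higher and the same share lower (63.6% in all). For Trim71 the log2 enrichments were 2.17 ± 0.086 in HA-Tnrc6a, 1.70 ± 0.071 in the Ago2 knockout and 2.37 ± 0.073 in cells labelled Upf1 knockout. Lin28a gave 1.77 ± 0.065, 1.78 ± 0.061 and 2.05 ± 0.069 in the same order, and Igf2bp1 gave 1.87 ± 0.076, 1.60 ± 0.060 and 1.85 ± 0.066. Mycn remained the most enriched of the 8 at 2.85 ± 0.071 and 2.52 ± 0.076 in the 2 knockouts. Lin28b had 1.15 ± 0.15 and 0.88 ± 0.12, and Igf2bp2 stayed below 0 at -0.43 ± 0.071 and -0.32 ± 0.071. Igf2bp3 and Hmga2 were the members whose calls were not the same in all 3 comparisons. For Igf2bp3 the log2 value over untagged was 0.029 ± 0.077 in the Ago2 knockout (edgeR adjusted p = 0.757, 95% interval -0.12 to 0.18) and 0.82 ± 0.076 in cells labelled Upf1 knockout (adjusted p = 1.05e-11). Hmga2 was again near 0 in the Ago2 knockout (0.036 ± 0.14, adjusted p = 0.838) and passed as lower in cells labelled Upf1 knockout (-0.28 ± 0.12, adjusted p = 0.036), a call lost in experiment 4 alone (-0.15). Leaving out 1 of 8 libraries also ended it (-0.27 to -0.22), namely in experiment 3 labelled Upf1 knockout IP replicate 3, untagged input replicate 1 and labelled Upf1 knockout input replicate 2, and in experiment 4 untagged IP replicate 1, labelled Upf1 knockout IP replicates 2 and 3, untagged input replicate 3 and labelled Upf1 knockout input replicate 1. With library totals the median of all genes was -0.22 in the Ago2 knockout and -0.32 in cells labelled Upf1 knockout, and the value of Igf2bp3 in the Ago2 knockout was -0.12 and that of Hmga2 there -0.12. The levels in the IPs alone passed as higher in the Ago2 knockout for Igf2bp3 (0.17, adjusted p = 0.0193) and as lower for Hmga2 (-0.36, adjusted p = 0.0113), so neither non-call held there.

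Whether the experiments differed was tested for each gene in each of the 10 comparisons. Of 80 such tests 12 passed, all in inputs. The shares of all genes passing this test were 0.365% for enrichment in HA-Tnrc6a, 6.15% in the Ago2 knockout and 1.68% in cells labelled Upf1 knockout. They were 0.195%, 0.115% and 0.125% for the recovery comparisons that follow, of the Ago2 knockout and of cells labelled Upf1 knockout with HA-Tnrc6a and with each other. For the inputs they were 5.94%, 11.6% and 13.1% in the same order, and 3.4% for untagged against HA-Tnrc6a.

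Whether recovery depended on Ago2 was asked directly by comparing the IP-to-input ratio of Ago2 knockout cells with that of HA-Tnrc6a cells. Trim71, Igf2bp1 and Igf2bp3 were recovered less and Mycn more, while Lin28a, Lin28b, Hmga2 and Igf2bp2 did not pass the test. Of 19995 genes tested 21.3% passed, 9.09% as higher and 12.3% as lower. The median log2 difference was -0.064 over the 8 genes and -0.038 over all genes. The RNA of Tnrc6a, which encodes the tagged protein, also differed between these cells. Its inputs held 97.3 to 102 CPM in the Ago2 knockout against 66.6 to 73.8 CPM in HA-Tnrc6a in experiment 3. In experiment 4 they held 120 to 130 against 84.5 to 91.5 CPM. Its IPs held 41114 to 58807 against 19271 to 34244 CPM, and 11211 to 15861 against 8841 to 12657 CPM with overlap in experiment 4. Its part in the recovery values was not tested.

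Igf2bp3 changed most. Its IPs held 98.3, 105 and 91.6 CPM in HA-Tnrc6a and 77.5, 69.3 and 73.5 CPM in Ago2 knockout cells of experiment 3, while its inputs held 70.6, 73.8 and 73.4 against 92.6, 80.01 and 89.6 CPM. In experiment 4 the IPs held 96.2, 92.3 and 95.9 against 72.1, 68.6 and 72.3 CPM and the inputs 82.4, 83.6 and 84.9 against 90.8, 89.7 and 93.2 CPM. The knockout was lower in every IP and higher in every input of each experiment. The log2 change in recovery was -0.62 ± 0.063 (SE, n = 3 per group), with -0.69 in experiment 3 and -0.55 in experiment 4 and an edgeR adjusted p of 2.3e-09, at percentile 6.18 of all genes tested.

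Trim71 recovery was also lower. HA-Tnrc6a IPs held 849.6, 755 and 606 CPM and Ago2 knockout IPs 563, 458 and 483 CPM in experiment 3, and 795, 704 and 666 against 477, 440.4 and 497 CPM in experiment 4. The groups did not overlap in either experiment. The log2 change was -0.48 ± 0.088, a ratio of 0.719 (edgeR adjusted p = 8.9e-05), with -0.44 in experiment 3 and -0.52 in experiment 4. Igf2bp1 changed by -0.27 ± 0.076 (adjusted p = 0.00821), with 1373, 1201 and 1135 CPM in HA-Tnrc6a and 1093, 1048 and 1104 CPM in knockout IPs of experiment 4. In experiment 3 alone, and from the IPs without their inputs, the Igf2bp1 call was lost (-0.32, adjusted p = 0.133, and -0.15, adjusted p = 0.104).

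Mycn went the other way. Its IPs held 728, 767 and 757 CPM in HA-Tnrc6a and 1374, 1267 and 1676 CPM in Ago2 knockout cells of experiment 3, and 746, 610.4 and 573 against 1049.7, 1073 and 1125 CPM in experiment 4, with all 6 knockout IPs above all 6 HA-Tnrc6a IPs. Its inputs rose less, from 127, 130.1 and 137 to 167, 174 and 165 CPM and from 115, 111 and 109.8 to 138, 136 and 129.7 CPM. Relative to input, recovery rose by 0.53 ± 0.083 on the log2 scale (edgeR adjusted p = 6.99e-06), with 0.58 in experiment 3 and 0.48 in experiment 4. The 4 members that did not pass had 95% intervals of -0.13 to 0.13 for Lin28a, -0.25 to 0.0017 for Igf2bp2, -0.13 to 0.39 for Lin28b and -0.25 to 0.24 for Hmga2. The Trim71, Igf2bp3 and Mycn calls held with each library left out in turn and under each alternative but a 2-fold minimum, which none of the 8 genes reached in this comparison. The levels in the IPs alone, without the inputs, passed as higher for Lin28b (0.21, adjusted p = 0.0443) and lower for Hmga2 (-0.26, adjusted p = 0.0416).

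In cells labelled Upf1 knockout, recovery relative to HA-Tnrc6a passed the test for Lin28a only with the settings used throughout, and for 0 to 7 of the 8 genes under other settings, where 4.49% of 19966 genes passed, 2.92% as higher and 1.57% as lower. The direction of those calls depends on the scaling, since 65.1% of them were higher with TMM, 52.8% with RLE size factors and 22.4% with library totals. Lin28a IPs held 605, 615 and 621 CPM in HA-Tnrc6a and 826, 759.5 and 903 CPM in cells labelled Upf1 knockout of experiment 3, without overlap, and 751, 658 and 628 against 809, 716 and 648 CPM in experiment 4, with overlap. The log2 change was 0.27 ± 0.069 (edgeR adjusted p = 0.0158). It did not pass with library totals (0.18, adjusted p = 0.117), with RLE size factors (0.26, adjusted p = 0.0513), without a count filter (0.24, adjusted p = 0.0507), with all 48 libraries in 1 fit (0.22, adjusted p = 0.0525), or in experiment 3 (0.28, adjusted p = 0.296) or 4 alone (0.21, adjusted p = 0.308). Leaving out any 1 of 10 of the 24 libraries also ended it (0.18 to 0.25), namely in experiment 3 HA-Tnrc6a IP replicates 1 and 2, labelled Upf1 knockout IP replicate 3 and HA-Tnrc6a input replicates 1, 2 and 3, and in experiment 4 HA-Tnrc6a IP replicate 2, labelled Upf1 knockout IP replicate 1 and HA-Tnrc6a input replicates 2 and 3. Hmga2 stood at -0.33 ± 0.10 with an adjusted p of 0.0701, and 6 of 10 other settings called it lower. These were DESeq2 (-0.34, adjusted p = 0.0344), library totals (-0.42, adjusted p = 0.0164), no count filter (-0.36, adjusted p = 0.0499), the replicate block without (-0.33, adjusted p = 0.0312) and with lysate pairs (-0.33, adjusted p = 0.032), and the IPs without their inputs (-0.59, adjusted p = 4.52e-06). So did the removal of 1 of 6 libraries (-0.44 to -0.37), namely in experiment 3 HA-Tnrc6a IP replicate 3, labelled Upf1 knockout IP replicate 1, HA-Tnrc6a input replicate 2 and labelled Upf1 knockout input replicate 3, and in experiment 4 HA-Tnrc6a IP replicate 1 and labelled Upf1 knockout IP replicate 1. The values of Trim71 (0.20 ± 0.087), Mycn (0.20 ± 0.079), Igf2bp3 (0.17 ± 0.057), Igf2bp1 (-0.031 ± 0.077), Igf2bp2 (-0.018 ± 0.061) and Lin28b (-0.14 ± 0.10) did not pass. Of these 6 and Hmga2, 4 had an unadjusted p under 0.05. The levels in the IPs alone passed as lower in cells labelled Upf1 knockout for Mycn (-0.74, adjusted p = 1.54e-07), against the sign of its recovery, and for Igf2bp2 (-0.45, adjusted p = 1.52e-06), Lin28b (-0.36, adjusted p = 0.000368) and Igf2bp1 (-0.22, adjusted p = 0.0216), and as higher for Igf2bp3 (0.44, adjusted p = 1.03e-06). The input levels of these genes, which the ratio takes into account, are given further on.

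The 2 knockouts were then set against each other, without the HA-Tnrc6a libraries. Recovery in the Ago2 knockout less that in cells labelled Upf1 knockout was -0.65 ± 0.075 on the log2 scale for Trim71 (edgeR adjusted p = 6.83e-09), -0.77 ± 0.061 for Igf2bp3 (adjusted p = 1.12e-12), -0.25 ± 0.066 for Lin28a (adjusted p = 0.00371) and -0.22 ± 0.065 for Igf2bp1 (adjusted p = 0.0101). Mycn recovery was higher by 0.35 ± 0.079 (adjusted p = 0.00073). These are 5 of 8 genes, where 24.4% of 19962 genes passed, 10.9% as higher and 13.5% as lower. All 6 Igf2bp3 IPs of the Ago2 knockout (69.3 to 77.5 and 68.6 to 72.3 CPM in experiments 3 and 4) lay below all 6 of cells labelled Upf1 knockout (130.2 to 135 and 121 to 132 CPM). The Igf2bp1 call was lost with library totals (-0.14, adjusted p = 0.0912), without a count filter (-0.18, adjusted p = 0.0512), with all 48 libraries in 1 fit (-0.18, adjusted p = 0.056) and in experiment 3 alone (-0.062, adjusted p = 0.795), the Mycn call in experiment 3 alone (0.36, adjusted p = 0.0845) and the Lin28a call in experiment 3 alone (-0.19, adjusted p = 0.314). From the IPs without their inputs the Igf2bp1 value was above 0 (0.040, adjusted p = 0.606), and Igf2bp2, at -0.084 ± 0.061 in recovery, passed as higher (0.44, adjusted p = 9.66e-08). Hmga2 recovery (0.34 ± 0.17) passed only with all 48 libraries in 1 fit (0.38, adjusted p = 0.0334) or without 1 of 3 libraries (0.43 to 0.44), namely in experiment 3 Ago2 knockout input replicate 3, and in experiment 4 Ago2 knockout IP replicate 3 and labelled Upf1 knockout IP replicate 1. That of Lin28b (0.29 ± 0.13) passed without 1 of 2 (0.35 to 0.46), in experiment 3 Ago2 knockout input replicate 2, and in experiment 4 labelled Upf1 knockout IP replicate 1. Lin28b also passed as higher under 2 of 10 other settings, which gave values of 0.27 to 0.54 (lowest adjusted p = 4.81e-06). Leaving out 1 of 8 libraries ended the Igf2bp1 call (-0.19 to -0.14), namely in experiment 3 Ago2 knockout IP replicate 2, labelled Upf1 knockout IP replicates 1 and 3 and Ago2 knockout input replicates 1 and 2, and in experiment 4 labelled Upf1 knockout IP replicate 1 and Ago2 knockout input replicates 2 and 3. That of Lin28a ended (-0.20 to -0.17) without 1 of 2, in experiment 3 Ago2 knockout input replicate 1, and in experiment 4 labelled Upf1 knockout IP replicate 1. In this comparison too the split of all calls moved with the scaling, from 44.6% higher with TMM to 63.4% with library totals.

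The lysates themselves were compared next, where fewer cells expressing a gene and less RNA per cell cannot be told apart. In Ago2 knockout inputs 4 of the 8 genes were higher and 2 lower than in HA-Tnrc6a inputs, against 30.9% of 19641 genes passing (15.7% higher, 15.2% lower). Mycn rose by 0.31 ± 0.028 on the log2 scale (edgeR adjusted p = 2.41e-12) and Igf2bp3 by 0.20 ± 0.032 (adjusted p = 3.28e-06). Igf2bp2 rose by 0.11 ± 0.029 and Igf2bp1 by 0.085 ± 0.025, while Trim71 was lower, at -0.11 ± 0.028, and these 3 calls were lost when all 48 libraries shared 1 fit (adjusted p = 0.0774, 0.254 and 0.205). Each was also lost in 1 experiment alone, Igf2bp2 (0.059, adjusted p = 0.141) and Igf2bp1 (0.050, adjusted p = 0.16) in experiment 4 and Trim71 in experiment 3 (-0.12, adjusted p = 0.0649). Hmga2 averaged -0.29 ± 0.064 (adjusted p = 0.000288), which came from experiment 4, with 27.4, 26.9 and 25.3 CPM in HA-Tnrc6a and 18.1, 16.97 and 19.03 CPM in knockout inputs. In experiment 3 the groups overlapped, at 12.5, 14.1 and 11.8 against 11.8, 11.2 and 14.6 CPM, and the log2 value was -0.031. In experiment 4 the 6 primed and differentiation markers summed to 48.3 to 49.5 CPM in these knockout inputs against 56.1 to 58.3 CPM in HA-Tnrc6a, and the 4 fibroblast markers to 27.3 to 31.0 against 35.9 to 36.8 CPM. Both sums were also lower in the knockout in experiment 3, where the Hmga2 groups overlapped, at 56.8 to 61.3 against 68.9 to 69.96 CPM and 33.7 to 37.6 against 44.1 to 48.1 CPM. Their part in the Hmga2 value was not tested. Lin28a (0.0094 ± 0.025) and Lin28b (0.044 ± 0.094) did not pass, although experiment 4 alone called Lin28a lower (-0.077, adjusted p = 0.0305).

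In inputs labelled Upf1 knockout 5 of the 8 genes were lower and 1 higher than in HA-Tnrc6a inputs, against 58.6% of 19444 genes passing (29.5% higher, 29% lower). Mycn fell furthest, with 127, 130.1 and 137 CPM in HA-Tnrc6a and 74.9, 76.003 and 80.2 CPM in cells labelled Upf1 knockout of experiment 3, and 115, 111 and 109.8 against 54.6, 53.2 and 56.1 CPM in experiment 4. No library overlapped, and the log2 change was -0.90 ± 0.029, a ratio of 0.535 (edgeR adjusted p = 1.24e-29), at percentile 4.00 of all genes tested. Igf2bp2 fell from 162, 154 and 159 to 121, 112 and 109 CPM and from 162, 166 and 158 to 133, 126 and 130.4 CPM, a log2 change of -0.39 ± 0.027 (adjusted p = 1.96e-17). Igf2bp3 rose by 0.31 ± 0.029 (adjusted p = 3.05e-13), so the 2 paralogues moved in opposite directions in the same lysates. Igf2bp1 changed by -0.15 ± 0.024 and Trim71 by -0.21 ± 0.024 (adjusted p = 3.02e-07 and 3.26e-10), and each call rested on 1 experiment: alone, experiment 3 gave -0.051 for Igf2bp1 (adjusted p = 0.29) and experiment 4 gave -0.060 for Trim71 (adjusted p = 0.106). The 9 stem cell markers summed to 7412 to 7514 CPM in these inputs against 7707 to 7849 CPM in HA-Tnrc6a in experiment 3, and to 6777 to 6861 against 7346 to 7468 CPM in experiment 4, and their part in these values was not tested. Lin28a (0.046 ± 0.023) and Lin28b (-0.18 ± 0.084) did not pass, although library totals (0.088, adjusted p = 0.000687), the replicate block (0.046, adjusted p = 0.0489), experiment 3 alone (0.14, adjusted p = 0.0013) and the removal of 1 library (0.059), namely in experiment 3 HA-Tnrc6a input replicate 3, called Lin28a higher. RLE size factors (-0.19, adjusted p = 0.0446) and the removal of 1 of 3 libraries (-0.23 to -0.21), namely in experiment 3 labelled Upf1 knockout input replicate 1, and in experiment 4 HA-Tnrc6a input replicate 3 and labelled Upf1 knockout input replicate 3, called Lin28b lower.

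Hmga2 in these lysates turned with the experiment. In experiment 3 it was lower in inputs labelled Upf1 knockout (7.43, 8.77 and 6.69 CPM) than in HA-Tnrc6a inputs (12.5, 14.1 and 11.8 CPM). In experiment 4 it was higher, at 34.8, 30.2 and 32.6 against 27.4, 26.9 and 25.3 CPM, and the groups did not overlap in either. The log2 differences were -0.75 ± 0.10 and 0.31 ± 0.069, and they differed from each other (interaction 1.06 ± 0.13, adjusted p = 1.39e-08). The average of -0.22 ± 0.063 therefore describes neither experiment. Summed levels of the 6 primed and differentiation markers moved the same way in these libraries, from 68.9 to 70.0 CPM in HA-Tnrc6a against 34.7 to 38.5 CPM in cells labelled Upf1 knockout in experiment 3, and from 56.1 to 58.3 CPM against 67.7 to 72.8 CPM in experiment 4. The 4 fibroblast markers summed to 44.1 to 48.1 CPM against 46.5 to 51.3 CPM in experiment 3 and to 35.9 to 36.8 CPM against 52.9 to 57.4 CPM in experiment 4. The primed sum was mostly Otx2, at a median of 36.0 CPM over all inputs, then Sox1 at 11.2 CPM. T, Pax6, Sox17 and Gata6 had medians of 0.34 to 3.1 CPM, and Thy1 (25.8 CPM) led the fibroblast sum. The sums therefore do not show that each marker moved. None of the 6 primed markers was at 0 in any input. Their part in the Hmga2 result was not tested.

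**Figure D3:**
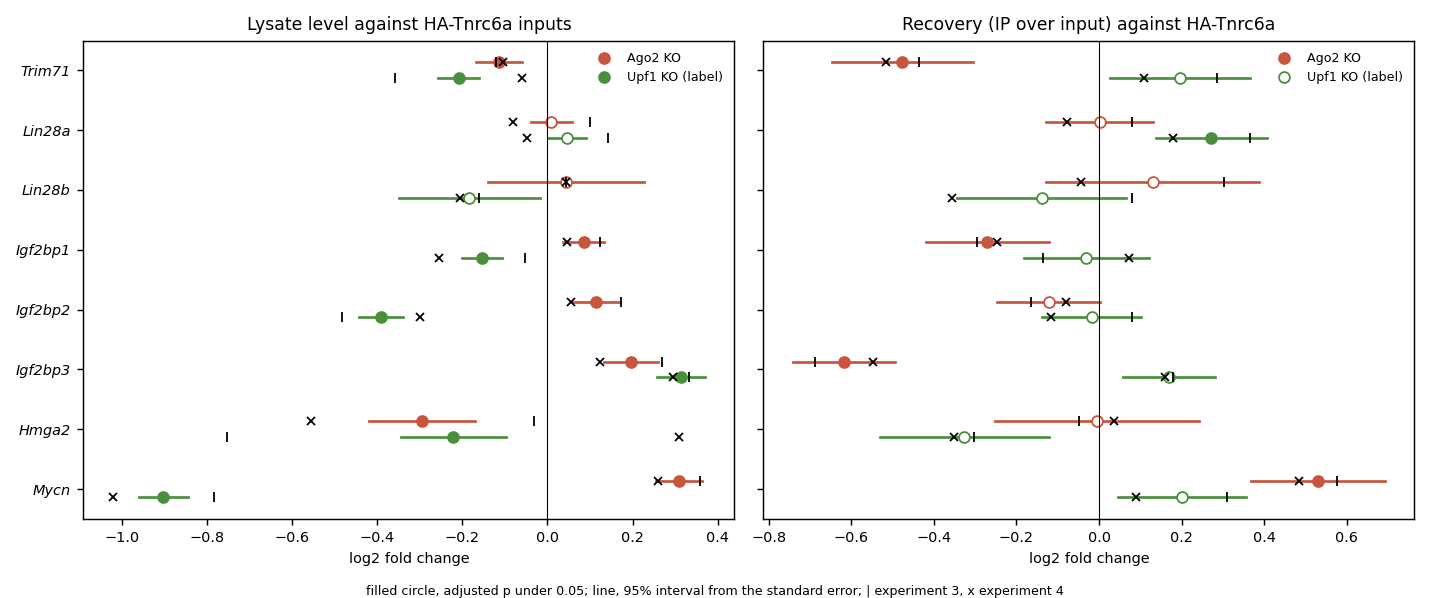
Log2 fold change of each gene against HA-Tnrc6a for the Ago2 knockout (red) and for cells labelled Upf1 knockout (green), in lysates (left) and in recovery relative to input (right), with a line for the 95% interval, a filled circle where the adjusted p is under 0.05, a bar for experiment 3 and a cross for experiment 4. In recovery Igf2bp3 and Trim71 lie to the left and Mycn to the right for the Ago2 knockout, and in lysates Hmga2 of cells labelled Upf1 knockout has its 2 experiments on opposite sides of 0.

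Between the inputs of the 2 knockouts 5 genes were higher in the Ago2 knockout and 1 lower, where 62.3% of 19419 genes passed, 31.4% as higher and 30.9% as lower. Mycn differed most, by 1.22 ± 0.030 or 2.32-fold (edgeR adjusted p = 3.74e-37), followed by Igf2bp2 at 0.51 ± 0.031 (adjusted p = 2.45e-20) and Igf2bp1 at 0.24 ± 0.026 (adjusted p = 1.09e-11). Lin28b (0.23 ± 0.098) and Trim71 (0.10 ± 0.029) passed as higher and Igf2bp3 (-0.11 ± 0.033) as lower. The Lin28b call was lost with library totals (0.17, adjusted p = 0.127) and in experiment 3 alone (0.20, adjusted p = 0.341), and the Igf2bp3 call in experiment 3 alone (-0.070, adjusted p = 0.306). The Trim71 call was lost with library totals (0.042, adjusted p = 0.211) and with all 48 libraries in 1 fit (0.10, adjusted p = 0.159), and its value was below 0 in experiment 4 alone (-0.048, adjusted p = 0.171). Library totals called Lin28a lower (-0.090, adjusted p = 0.00177). Leaving out 1 of 7 libraries ended the Lin28b call (0.096 to 0.24), namely in experiment 3 Ago2 knockout input replicate 2 and labelled Upf1 knockout input replicates 2 and 3, and in experiment 4 Ago2 knockout input replicates 2 and 3 and labelled Upf1 knockout input replicates 1 and 2. Hmga2 averaged -0.068 ± 0.069 and did not pass, with 0.73 in experiment 3 and -0.87 in experiment 4. Untagged inputs differed from HA-Tnrc6a inputs in 3 of the 8 genes, where 15.4% of 19407 genes passed, 7.67% as higher and 7.74% as lower. Mycn was lower in untagged cells, with a log2 difference of -0.26 ± 0.034 (adjusted p = 2.76e-06) and 83.2, 81.5 and 86.1 CPM in untagged against 115, 111 and 109.8 CPM in HA-Tnrc6a inputs of experiment 4. In experiment 3 alone it did not pass (-0.11, adjusted p = 0.379). Trim71 (-0.099 ± 0.032) passed as lower and Lin28b (0.25 ± 0.083) as higher, calls that each ended without 1 of 8 libraries (-0.10 to -0.086 and 0.21 to 0.27). For Trim71 these were in experiment 3 untagged input replicate 2 and HA-Tnrc6a input replicates 1, 2 and 3, and in experiment 4 untagged input replicates 1 and 2 and HA-Tnrc6a input replicates 1 and 2. For Lin28b they were in experiment 3 untagged input replicate 3 and HA-Tnrc6a input replicates 1, 2 and 3, and in experiment 4 untagged input replicates 1 and 3 and HA-Tnrc6a input replicates 2 and 3. Both were also lost with all 48 libraries in 1 fit (adjusted p = 0.364 and 0.0794) and in experiment 4 alone, where the values were 0.0065 for Trim71 and 0.063 for Lin28b. The Lin28b call was lost with library totals (0.24, adjusted p = 0.06) and in experiment 3 alone (0.43, adjusted p = 0.0869) as well. Experiment 4 alone called Igf2bp1 lower (-0.088, adjusted p = 0.0304) and Igf2bp3 (0.21, adjusted p = 5.43e-05) and Hmga2 (0.27, adjusted p = 0.000436) higher in untagged inputs, as did leaving out 1 library for Igf2bp3 (0.12, in experiment 3 untagged input replicate 1) and for Hmga2 (0.16, in experiment 3 untagged input replicate 1).

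Other genes of the pathway were taken from 3 lists. The first held 25 further mRNAs described as let-7 targets. In HA-Tnrc6a over untagged, 18 were higher, 2 lower and 5 did not pass, where 29.8% of all genes tested were higher and 32.2% lower. The median log2 enrichment of the list was 0.71. Plagl2, a zinc finger transcription factor, led at 5.61, followed by the TGF-beta receptor gene Tgfbr1 (2.65) and E2f5 (2.51), while Myc (-0.83) and Hras (-0.63) were lower. In contrast to Mycn, then, Myc was depleted on the beads. In recovery in the Ago2 knockout against HA-Tnrc6a, 2 of the 25 were higher, Myc (0.70) and Bach1 (0.64), and 5 lower. Among the 5 were E2f5 (-0.69), Ccnd2 (-0.37) and Tgfbr1 (-0.31), and the median of the list was -0.044. Of all genes tested, 9.09% were higher and 12.3% lower in that comparison. In cells labelled Upf1 knockout Nr6a1 (0.27) was recovered more and Cdc25a (-0.50) less, and the other 23 did not pass. Of all genes tested, 4.49% passed in this comparison. The number of the list passing ranged from 0 to 16 under other settings. With 1 library left out it ranged from 1 to 2 and changed in 14 of 24 fits. In Ago2 knockout lysates 8 were higher and 2 lower (15.7% and 15.2% of all genes tested), led by the G1 cyclin genes Ccnd2 (1.32) and Ccnd1 (0.81). In lysates labelled Upf1 knockout 8 were higher and 10 lower (29.5% and 29% of all genes tested), with Arid3a (0.62) highest and Myc (-0.48) lowest among those with an average log2 CPM of at least 3. Ccnd2, singled out after its value was seen, fell further there (-1.70).

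The second list held 9 factors that make, block or degrade let-7. For HA-Tnrc6a over untagged 2 were higher, 5 lower and 2 did not pass, with a median of -0.23. Of all genes tested, 29.8% were higher and 32.2% lower there. Trim25, an RNA-binding ligase reported to act with Lin28a, was higher at 1.15, as was the nuclear microRNA processing enzyme Drosha at 0.36. Hnrnpa1 (-0.81), the Drosha partner Dgcr8 (-0.53) and Dis3l2 (-0.48) were lower. Tut4 and Tut7, the uridylyltransferases, did not pass there, at 0.17 and 0.089. In recovery in the Ago2 knockout, Tut4 was higher (0.27) and Hnrnpa1 lower (-0.20), and the other 7 did not pass. Among all genes tested, 9.09% were higher and 12.3% lower in that comparison. The number of this list passing ranged from 0 to 3 under other settings and from 1 to 4 with 1 library left out. In recovery in cells labelled Upf1 knockout, edgeR passed 0 of the 9 (4.49% of all genes tested), with 2 under an unadjusted p of 0.05, and DESeq2 passed 1. In lysates labelled Upf1 knockout Tut7 rose (0.55) and Dgcr8 fell (-0.32), and in all 4 were higher and 2 lower (29.5% and 29% of all genes tested).

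The third list held 7 mRNAs described as targets of Trim71 itself. All 7 were higher in HA-Tnrc6a over untagged, where 29.8% of all genes tested were higher. The median log2 enrichment of the 7 was 4.07, against 1.39 for the 8 genes. That median is the value of Hoxa5, which had 0 to 6 counts in untagged IPs and 2 to 32 in HA-Tnrc6a IPs, so that its fitted fold depends on the model. Over the other 6 the median was 4.04. Cdkn1a, which encodes the cell cycle inhibitor p21, reached 5.80, the retinoblastoma family gene Rbl2 5.08, and the splicing regulator Mbnl1 4.36. In recovery in the Ago2 knockout Inhbb (0.48) and Egr1 (0.30) were higher and Mbnl1 (-0.53) lower, and 4 did not pass. Of all genes tested, 9.09% were higher and 12.3% lower there. In lysates labelled Upf1 knockout 1 of the 6 tested was higher and 4 lower (29.5% and 29% of all genes tested), with Egr1 at -2.01 and Mbnl1 at -1.36. Trim71 mRNA, at -0.21 ± 0.024 in those lysates, is given above. These lists were drawn up with results of these data known and lend the 8 genes no independent support.

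**Figure D4:**
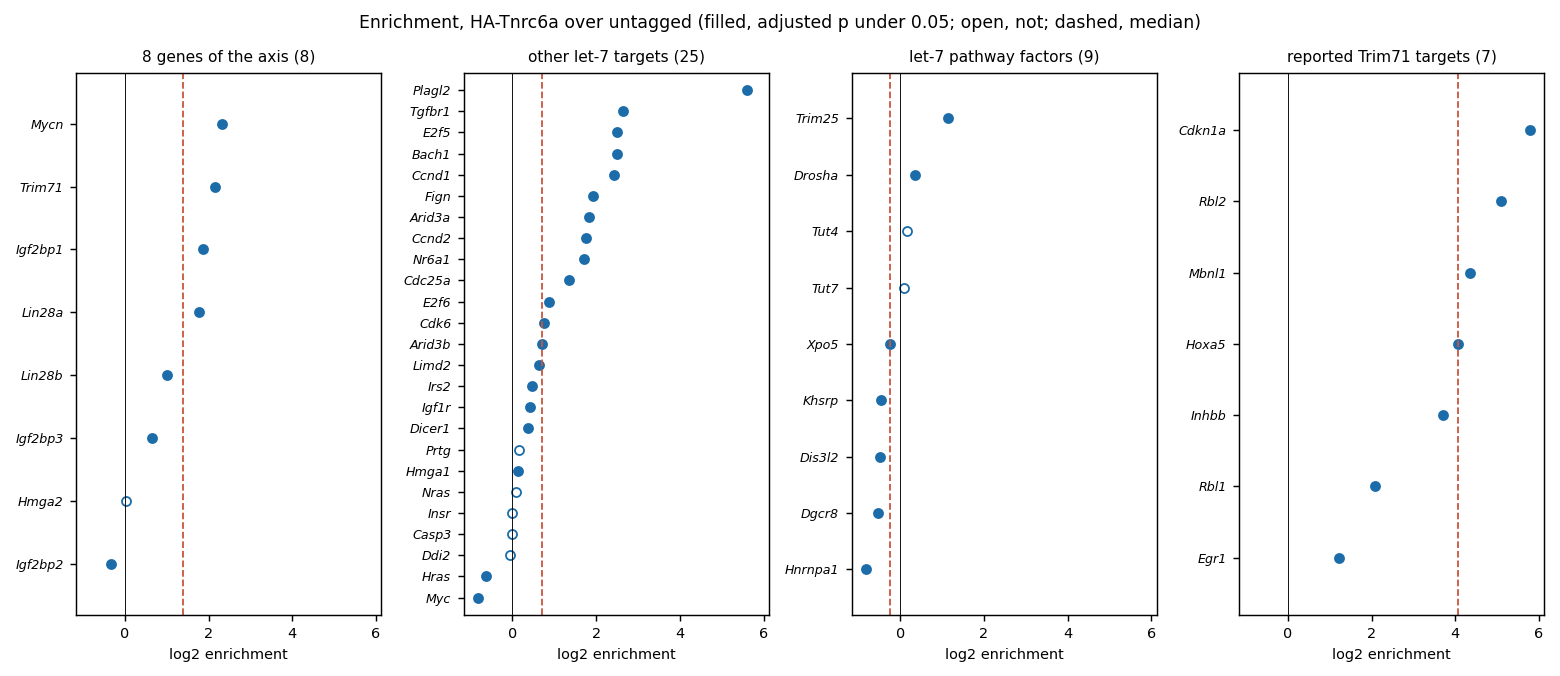
Log2 enrichment in HA-Tnrc6a over untagged for each gene of the axis and of 3 related lists, in order of size, with filled circles where the adjusted p is under 0.05, open circles where it is not and a dashed line at each list's median. The 7 reported Trim71 targets have a median of 4.07, the 8 genes of the axis 1.39, the other let-7 targets 0.71 and the let-7 pathway factors -0.23.

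Across the 16 group means of log2 CPM, the profiles of Trim71, Lin28a and Igf2bp1 were close to one another, with Pearson's r of 0.97 between Trim71 and Lin28a, 0.96 between Trim71 and Igf2bp1 and 0.95 between Lin28a and Igf2bp1. Lin28b gave 0.89 with Mycn and 0.89 with Igf2bp1. Lin28a and Mycn gave 0.86, Trim71 and Hmga2 0.28, and Lin28a and Igf2bp2 -0.75. How common such values are among all genes is not given. These values describe 16 points that share libraries, fractions and experiments. Among 10840 genes with an average log2 CPM of at least 3, the closest profile to that of Trim71 was Gm15583, with Mob1b and Hs2st1 next (r = 0.98 each). For Lin28a it was Foxk1 (0.99), for Lin28b Rbbp6 (0.97), for Igf2bp1 Rnf165 (0.99) and for Igf2bp2 Gspt1 (0.97). Mycn was matched best by Klf2 (0.99), Igf2bp3 by Yipf2 (0.92) and Hmga2 by Phlda1 (0.91).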

How the data were processed

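RNA from inputs and HA-bead IPs of 4 mouse embryonic stem cell genotypes was sequenced as stranded total RNA in experiments 3 and 4, in 48 libraries (16 groups of 3 dishes). The authors deposited whole-number read counts per gene with a gene length. Per the submitters' processing notes, bcl2fastq 2.20 and STAR 2.7.3a were run on GRCm38/mm10, while the counter, strand setting and annotation are not given in the sources used here. Count columns were matched to libraries by name, taking columns 1 to 3 of a genotype and fraction as experiment 3 and 4 to 6 as experiment 4, which the file does not state. Another 48 per-sample columns were not used. Genes passing filterByExpr (minimum count 10) were fitted with edgeR 4.0.16 (R 4.3.3, limma 3.58.1, TMM, robust quasi-likelihood F-test), each contrast was formed within an experiment and averaged over both, and p-values were Benjamini-Hochberg adjusted over all genes tested (threshold 0.05). Standard errors are the absolute log2 fold change over the square root of F. Alternatives were RLE factors, library totals, no count filter, DESeq2 1.42.0, all 48 libraries in 1 fit, each experiment alone, replicate blocks, IPs without inputs, a 2-fold minimum and leaving out each library. The 8 genes are named throughout. Per list and comparison, up to 3 genes per direction were eligible for naming, ranked by fold change, if they passed the threshold, had 1 sign in both experiments and averaged 3 or more in log2 CPM. The genes and lists were chosen with earlier results of these data known. A gene of the let-7 target list is not reported here and was left out of its counts and median. The scripts were tested on simulated data.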

Additional observations from a re-analysis of the deposited data

Results flagged for a closer look

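A difference between the experiments (experiment 4 minus experiment 3, on the log2 scale) was tested for each of the 8 genes in 10 comparisons, and 12 of the 80 tests passed, all among the 32 in inputs. Every value below compares 3 libraries with 3 libraries in each experiment. Hmga2 differed most. Its input change in cells labelled Upf1 knockout against HA-Tnrc6a differed by 1.06 ± 0.13 (SE; -0.75 in experiment 3, 0.31 in experiment 4, edgeR adjusted p = 1.39e-08), that in the Ago2 knockout against HA-Tnrc6a by -0.53 ± 0.13 (SE; -0.031 in experiment 3, -0.56 in experiment 4, edgeR adjusted p = 0.00648), and that in the Ago2 knockout against cells labelled Upf1 knockout by -1.61 ± 0.14 (SE; 0.73 in experiment 3, -0.87 in experiment 4, edgeR adjusted p = 3.22e-13).

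Over all genes tested, 11.6% of these differences passed for inputs labelled Upf1 knockout, 5.94% for Ago2 knockout inputs, 13.1% between the 2 knockouts and 3.4% for untagged inputs. For Trim71 in cells labelled Upf1 knockout the difference was 0.30 ± 0.049 (SE; -0.36 in experiment 3, -0.060 in experiment 4, edgeR adjusted p = 1.29e-05), and between the knockouts it was -0.30 ± 0.058 (SE; 0.25 in experiment 3, -0.049 in experiment 4, edgeR adjusted p = 0.000147). For Lin28a it was -0.18 ± 0.050 (SE; 0.10 in experiment 3, -0.081 in experiment 4, edgeR adjusted p = 0.0201) in the Ago2 knockout and -0.19 ± 0.045 (SE; 0.14 in experiment 3, -0.049 in experiment 4, edgeR adjusted p = 0.00263) in cells labelled Upf1 knockout.

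In cells labelled Upf1 knockout the difference was -0.20 ± 0.048 (SE; -0.052 in experiment 3, -0.25 in experiment 4, edgeR adjusted p = 0.00234) for Igf2bp1, 0.18 ± 0.053 (SE; -0.48 in experiment 3, -0.30 in experiment 4, edgeR adjusted p = 0.0162) for Igf2bp2 and -0.24 ± 0.059 (SE; -0.78 in experiment 3, -1.02 in experiment 4, edgeR adjusted p = 0.00409) for Mycn. Between the knockouts it was -0.32 ± 0.061 (SE; 0.67 in experiment 3, 0.35 in experiment 4, edgeR adjusted p = 0.000142) for Igf2bp2, and in untagged against HA-Tnrc6a inputs it was -0.32 ± 0.069 (SE; -0.11 in experiment 3, -0.42 in experiment 4, edgeR adjusted p = 0.00832) for Mycn. For Igf2bp2 and Mycn the direction within a comparison was the same in both experiments. When all 48 libraries shared 1 fit, 10 of the 12 differences no longer passed, and the exceptions were those of Hmga2 in cells labelled Upf1 knockout and between the knockouts. The Lin28a difference in the Ago2 knockout was lost without 1 of 5 libraries (in experiment 3 HA-Tnrc6a input replicates 1 and 2 and Ago2 knockout input replicate 1, and in experiment 4 Ago2 knockout input replicates 1 and 2) and the Igf2bp2 difference in cells labelled Upf1 knockout without 1 of 3 (in experiment 3 labelled Upf1 knockout input replicate 3, and in experiment 4 HA-Tnrc6a input replicate 3 and labelled Upf1 knockout input replicate 1). That Igf2bp2 difference was lost under 2 of 6 other settings, which include the fit of all 48 libraries.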

How the results depend on the processing

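Over the 8 genes and 10 comparisons, 639 of 736 values under other settings kept direction and side of the threshold, 36 lost the call, 25 gained one and 36 changed sign. With 1 library left out, 1429 of 1536 were kept, 51 lost the call, 17 gained one and 39 changed sign. The causes were not tested. Sign changes in log2 values were as follows. With library totals, these were HA-Tnrc6a enrichment of Hmga2 -0.126, Ago2 knockout enrichment of Hmga2 -0.116 and Igf2bp3 -0.124, Ago2 knockout recovery of Hmga2 0.00935, recovery between knockouts of Igf2bp2 0.000378, Ago2 knockout inputs of Lin28a -0.00218, untagged inputs of Lin28a -0.0125. From IPs without inputs, these were HA-Tnrc6a enrichment of Hmga2 -0.0891, Ago2 knockout enrichment of Hmga2 -0.357, Ago2 knockout recovery of Igf2bp2 0.0280, labelled Upf1 knockout recovery of Trim71 -0.0507 and Mycn -0.741, recovery between knockouts of Igf2bp1 0.0400 and Igf2bp2 0.442. In experiment 3 alone, these were HA-Tnrc6a enrichment of Hmga2 -0.148, Ago2 knockout enrichment of Hmga2 -0.243 and Igf2bp3 -0.0759, inputs between knockouts of Hmga2 0.716, untagged inputs of Hmga2 -0.00511, Igf2bp1 0.0558 and Igf2bp3 -0.0267. With RLE size factors, these were Ago2 knockout enrichment of Igf2bp3 -0.00251, Ago2 knockout recovery of Lin28a -0.0114. With DESeq2, these were Ago2 knockout enrichment of Igf2bp3 -0.00251, Ago2 knockout recovery of Lin28a -0.0115. In experiment 4 alone, these were Ago2 knockout recovery of Lin28a -0.0646, Lin28b -0.0315 and Hmga2 0.0461, labelled Upf1 knockout recovery of Igf2bp1 0.106, recovery between knockouts of Igf2bp2 0.0215, Ago2 knockout inputs of Lin28a -0.0766, labelled Upf1 knockout inputs of Lin28a -0.0500 and Hmga2 0.309, inputs between knockouts of Trim71 -0.0478, untagged inputs of Trim71 0.00653 and Lin28a -0.0190. Of these, Hmga2 Ago2 knockout enrichment (from IPs without inputs, adjusted p = 0.0113), Mycn labelled Upf1 knockout recovery (from IPs without inputs, adjusted p = 1.54e-07), Igf2bp2 recovery between knockouts (from IPs without inputs, adjusted p = 9.66e-08), Lin28a Ago2 knockout inputs (in experiment 4 alone, adjusted p = 0.0305), Hmga2 labelled Upf1 knockout inputs (in experiment 4 alone, adjusted p = 2.56e-05) and Hmga2 inputs between knockouts (in experiment 3 alone, adjusted p = 2.1e-05) passed the threshold with the opposite sign. Leaving out 1 library changed the sign within these ranges: Hmga2 HA-Tnrc6a enrichment -0.0208 to 0.0972, Hmga2 Ago2 knockout enrichment -0.0677 to 0.117, Igf2bp3 Ago2 knockout enrichment -0.0577 to 0.0595, Lin28a Ago2 knockout recovery -0.0115 to 0.0409, Hmga2 Ago2 knockout recovery -0.0932 to 0.0922, Lin28a Ago2 knockout inputs -0.00413 to 0.0300, Lin28b Ago2 knockout inputs -0.0872 to 0.118, Lin28a untagged inputs -0.0137 to 0.0293, Igf2bp1 untagged inputs -0.0275 to 0.00279.

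Counts of all genes passing moved by over 1.5 times as follows. With a 2-fold minimum the count became HA-Tnrc6a enrichment 4283, Ago2 knockout enrichment 5229, labelled Upf1 knockout enrichment 4908, Ago2 knockout recovery 224, labelled Upf1 knockout recovery 34, recovery between knockouts 282, Ago2 knockout inputs 355, labelled Upf1 knockout inputs 1026, inputs between knockouts 1460, untagged inputs 200, and of differences between experiments became HA-Tnrc6a enrichment 24, Ago2 knockout enrichment 240, labelled Upf1 knockout enrichment 92, Ago2 knockout recovery 21, recovery between knockouts 8, Ago2 knockout inputs 179, labelled Upf1 knockout inputs 287, inputs between knockouts 295, untagged inputs 102. With library totals the count of differences between experiments became HA-Tnrc6a enrichment 482 (from 73), labelled Upf1 knockout enrichment 1039 (from 335). With 48 libraries in 1 fit the count became Ago2 knockout inputs 3902 (from 6065), untagged inputs 1937 (from 2990), and of differences between experiments became HA-Tnrc6a enrichment 226 (from 73), recovery between knockouts 13 (from 25), Ago2 knockout inputs 301 (from 1166), labelled Upf1 knockout inputs 717 (from 2253), inputs between knockouts 880 (from 2544), untagged inputs 261 (from 660). With a replicate block the count of differences between experiments became HA-Tnrc6a enrichment 160 (from 73), recovery between knockouts 41 (from 25). With lysate pairs and a replicate block the count of differences between experiments became HA-Tnrc6a enrichment 397 (from 73), Ago2 knockout enrichment 1864 (from 1228), labelled Upf1 knockout enrichment 768 (from 335). From IPs without inputs the count became Ago2 knockout recovery 7482 (from 4267), labelled Upf1 knockout recovery 8805 (from 896), recovery between knockouts 10794 (from 4878), and of differences between experiments became HA-Tnrc6a enrichment 1089 (from 73), Ago2 knockout enrichment 3361 (from 1228), labelled Upf1 knockout enrichment 1538 (from 335), Ago2 knockout recovery 624 (from 39), labelled Upf1 knockout recovery 559 (from 23), recovery between knockouts 1237 (from 25). With DESeq2 the count of differences between experiments became HA-Tnrc6a enrichment 395 (from 73), labelled Upf1 knockout enrichment 600 (from 335), Ago2 knockout recovery 105 (from 39), labelled Upf1 knockout recovery 40 (from 23), recovery between knockouts 85 (from 25). In experiment 3 alone the count became Ago2 knockout recovery 1623 (from 4267), labelled Upf1 knockout recovery 162 (from 896), recovery between knockouts 2667 (from 4878), Ago2 knockout inputs 3382 (from 6065), untagged inputs 652 (from 2990). In experiment 4 alone the count became labelled Upf1 knockout recovery 384 (from 896). Leaving out 1 library gave ranges of HA-Tnrc6a enrichment differences 20 to 337, labelled Upf1 knockout enrichment differences 207 to 507, Ago2 knockout recovery differences 24 to 71, labelled Upf1 knockout recovery 591 to 957, labelled Upf1 knockout recovery differences 19 to 37, recovery between knockouts differences 15 to 118, untagged inputs differences 309 to 1030. Samples with 1 replicate number correlated weakly in their deviations from group means (mean r = 0.068, from -0.29 to 0.67 over 168 pairs), as did IP and input of 1 lysate (0.10, from -0.061 to 0.51 over 24 pairs), so the main tests did not take the numbers as pairs, and the ratios plotted and averaged per lysate match IP and input by number as a description. With the replicate block 12435 genes passed for HA-Tnrc6a enrichment, 4471 for Ago2 knockout recovery, 1067 for labelled Upf1 knockout recovery and 6494 for Ago2 knockout inputs. Lin28b and Hmga2, with as few as 99 and 111 counts in a library, are limited most by depth.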
